A study of Mus musculus with 14 samples.

Results

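The 9 genes of cytotoxic lymphocytes described here, Crtam, Nkg7, Gzma, Gzmb, Prf1, Klrd1, Klrk1, Eomes and Tbx21, were followed in 14 mouse thymic lymphomas, 7 of the Vav-SB strain and 7 of the CD4-SB strain. They were chosen by name, as all probe sets annotated to 1 of these genes alone, and make up 9 of the 15803 named genes and 84 of their 179496 probe sets. Each probe set reads about 1 exon, and a gene's level is the mean of its probe sets' log2 values in a tumour. Both strains model T-ALL, an acute leukaemia of immature T cells, and in them Sleeping Beauty, a mobile transposon that mutates genes where it lands, is active. As is known of this study, the names refer to the promoter of the Cre transgene that turns transposition on, that of Vav in early blood cells and that of Cd4 in developing thymocytes. Every tumour carried the label of a thymic lymphoma, and the sources used here do not give alleles, ages, sexes or treatments. The series title asks how the cell of origin shapes the mutations that are selected. The 7 CD4-SB tumours carry 4 first numbers in their titles (1 number is common to replicates 1 and 2, another to 5, 6 and 7), and no label states whether tumours stem from different animals. P-values therefore cover only how these tumours vary, which may be technical in part.

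Killer lymphocytes, NK cells and cytotoxic T cells, kill by releasing granules onto a target. Perforin opens the target's membrane, granzymes enter and cleave proteins inside, and surface receptors such as NKG2D and the CD94 heterodimers decide which cell is attacked. The related T-box factors T-bet and Eomes switch this programme on in mature cells. Most developing thymocytes do not run it.

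The tissue label was set against genes of the T lineage. The CD3 chains, which all T cells carry, were bright in both models, with Cd3e at 11.66 ± 0.14 in Vav-SB tumours and 11.44 ± 0.24 in CD4-SB tumours (mean log2 level ± SD, n = 7 each, as for all means below). The defining markers of NK cells were mostly at the level of unexpressed genes. As a guide to that level, 968 olfactory, vomeronasal and taste receptor genes had a median of 4.77, and 95% of them lay below 6.88. Probe sets differ in how strongly they bind, so this is no sharp limit. Of 8 NK markers, Klra4, Klra7, Klra8, Klri2 and Klre1 stayed below the 95% level of these receptor genes in all 14 tumours. S1pr5, a sphingosine receptor, was nearly flat, between 7.19 and 7.66 in Vav-SB tumours and between 7.09 and 7.62 in CD4-SB tumours. Ncr1, the NK receptor NKp46, and Klrb1c, the NK1.1 antigen, passed that level in 1 tumour each, CD4-SB replicate 6 for Ncr1 (7.96) and CD4-SB replicate 3 for Klrb1c (9.65). Klr and granzyme genes belong to families of closely related copies, so their probe sets can bind relatives, and their values are uncertain to that extent. The list's mean ran from 4.94 to 5.15 in Vav-SB tumours and from 4.88 to 5.93 in CD4-SB tumours, where replicates 3 (5.73) and 6 (5.93) were the highest.

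RefSeq promoters of build GRCm38.p6 matched 7 of the 9 genes. Windows of 3 granule genes are shown, chosen after the values and motifs were seen: Nkg7 holds the T-box letters, Gzma has its higher mean in Vav-SB, and Gzmb was high in a few CD4-SB tumours. Each runs from 250 bases before to 50 after the gene's start. They are written 5′ to 3′ on the gene's strand, and capitals mark matches on either strand to 3 motifs: GGTGTGA of T-box factors, TGTGGT of Runx factors and TGANTCA of AP-1. The Nkg7 window is chr7:43436888-43437187 (plus strand), that of Gzma is chr13:113100932-113101231 (minus strand) and that of Gzmb is chr14:56262285-56262584 (minus strand).
Nkg7: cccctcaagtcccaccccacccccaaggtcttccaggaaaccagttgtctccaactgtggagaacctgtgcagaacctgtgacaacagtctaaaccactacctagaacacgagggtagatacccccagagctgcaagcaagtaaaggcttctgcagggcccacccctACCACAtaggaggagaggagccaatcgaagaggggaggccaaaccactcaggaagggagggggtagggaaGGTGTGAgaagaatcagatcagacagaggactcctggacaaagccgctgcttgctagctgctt
Gzma: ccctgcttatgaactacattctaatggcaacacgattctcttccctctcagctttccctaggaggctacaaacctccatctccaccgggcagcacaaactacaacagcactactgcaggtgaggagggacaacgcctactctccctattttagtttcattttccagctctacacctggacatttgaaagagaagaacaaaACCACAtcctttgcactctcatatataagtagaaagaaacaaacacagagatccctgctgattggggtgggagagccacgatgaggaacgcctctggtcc
Gzmb: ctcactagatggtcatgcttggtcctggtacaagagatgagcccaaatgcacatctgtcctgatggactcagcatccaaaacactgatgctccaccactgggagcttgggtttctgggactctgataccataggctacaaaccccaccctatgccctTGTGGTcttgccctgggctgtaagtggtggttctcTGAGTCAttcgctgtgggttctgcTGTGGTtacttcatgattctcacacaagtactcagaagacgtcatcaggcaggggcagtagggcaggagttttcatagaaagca
The T-box letters were found in 1 of the 7 promoters, that of Nkg7, and in 3.98% of 32851 promoters of the same length. The Runx letters were found in 5 of the 7 (Nkg7, Gzma, Gzmb, Prf1 and Klrk1), against 16.8% of all promoters. The AP-1 letters were found in 2 of the 7 (Gzmb and Klrk1), against 7.81% of all. No 2 matches overlapped in these promoters. A match is a run of letters in the window and does not show that a factor binds there.

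Crtam, a receptor that activated killer and CD4 T cells put on their surface, was the single gene of the 9 that passed the threshold. Its levels had a lowest, median and highest value of 5.49, 5.86 and 6.34 in Vav-SB tumours, against 8.30, 8.66 and 9.53 in CD4-SB tumours. Every Vav-SB tumour lay in the range of the unexpressed receptor genes, every CD4-SB tumour lay above it, and the models did not overlap. Crtam was 7.53-fold lower in Vav-SB, at a log2 difference of -2.91 (95% interval -3.32 to -2.51, adjusted p = 3.31e-07 by limma, adjusted after Benjamini and Hochberg across the 15803 genes, with 0.05 as the threshold). Since the Vav-SB level was not above that of unexpressed genes, this fold may be understated, as may other folds against such low levels. All 11 of its probe sets passed on their own, with differences between -4.25 and -1.43. When the mean level of 44 marker genes (myeloid, dendritic, B-cell, stromal) was added to the model, the difference was -3.19 (adjusted p = 3.01e-05). That marker level was itself mostly higher in CD4-SB tumours, as given below. The tumours were measured in bulk, so fewer cells of a type and less RNA per cell cannot be told apart. The gene lies on chromosome 9 at 40972798 to 41004628 (GRCm38.p6).

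The count has to be read against the whole array, where 14.5% of genes passed in either direction, 7.18% lower and 7.28% higher in Vav-SB. Of 9 genes 1 passed (11.1%), which is close to that background. Separation without overlap, as for Crtam, was seen in 4.04% of all genes. The other 8 genes gave differences whose intervals are printed below, and a p that misses the threshold does not show that a difference is absent.

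**Figure D1:**
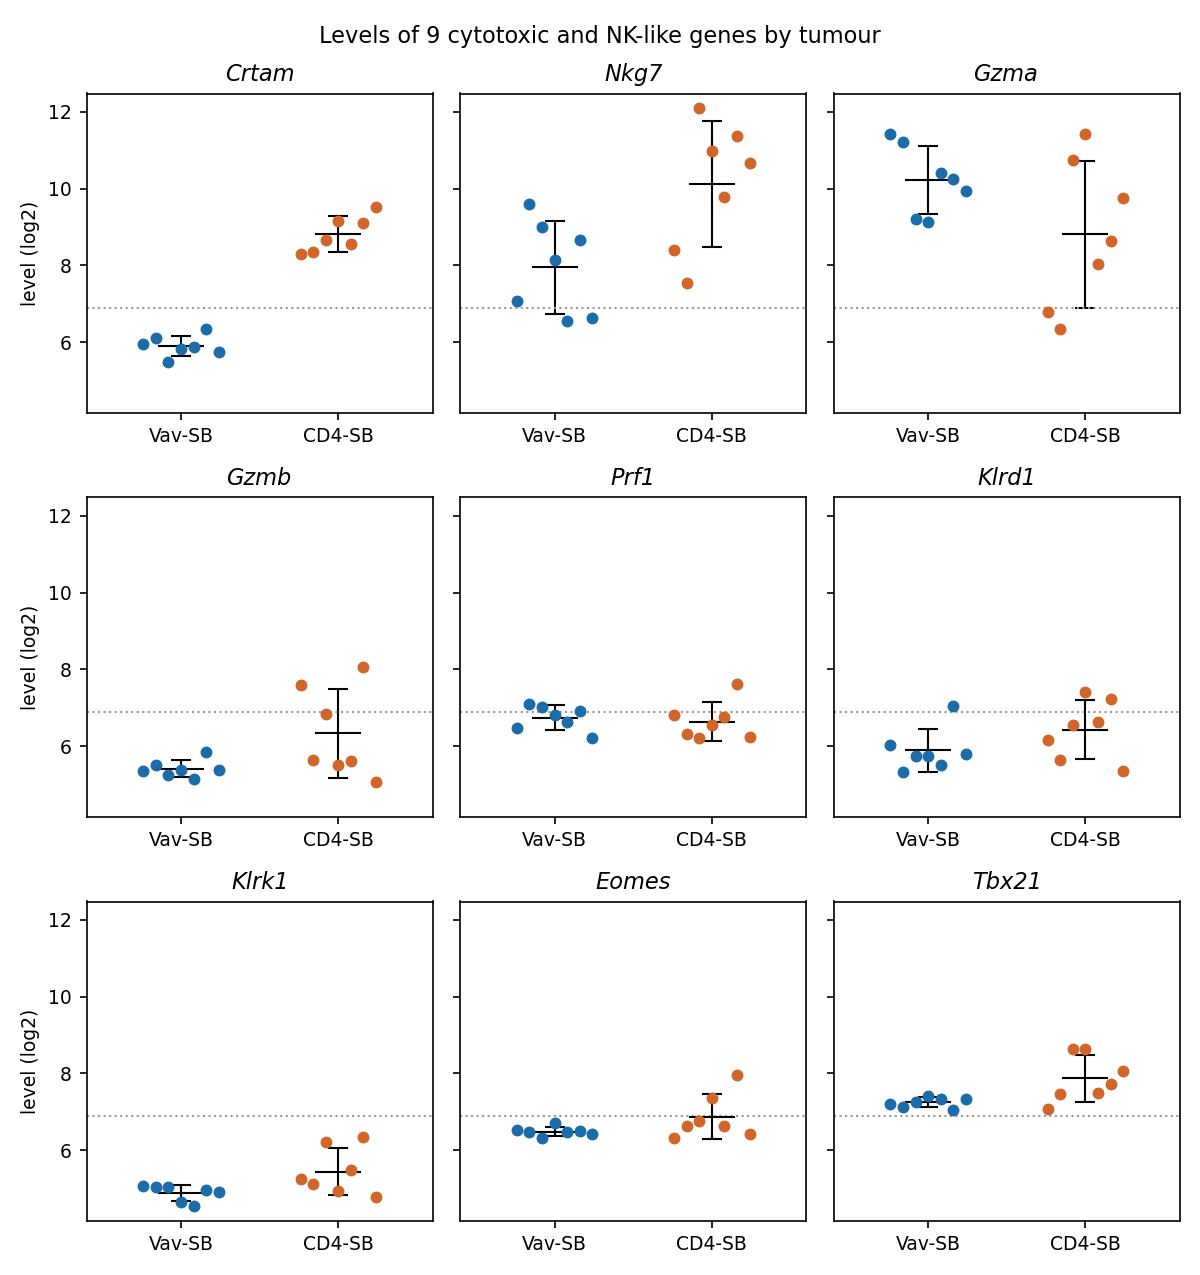
Level (log2) of each gene in each tumour, with Vav-SB tumours (blue) left and CD4-SB tumours (orange) right, in order of replicate number. Bars show the mean and SD of 7 tumours, and the dotted line at 6.88 is the level below which 95% of 968 sensory receptor genes lie. Crtam separates the models, Gzma has its higher mean in Vav-SB, and points of CD4-SB scatter more widely for each gene.

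A pair of granule genes had high levels and wide spreads. Nkg7, a granule membrane protein needed for their release, ran from 6.55 over 8.13 to 9.61 in Vav-SB tumours (lowest, median, highest), and from 7.54 over 10.66 to 12.10 in CD4-SB tumours. In all, 5 CD4-SB tumours lay above every Vav-SB tumour, while CD4-SB replicates 1 (8.4) and 2 (7.54) lay among them. The difference was -2.17 (95% interval -3.66 to -0.68) and its adjusted p, 0.0501, missed the threshold. It passed with the title number as a random block (-2.16, adjusted p = 0.0419), with array weights (adjusted p = 0.0245), with bright probe sets (adjusted p = 0.0434) and among genes above the median level (adjusted p = 0.035). It also passed without CD4-SB replicate 1 or 2 or Vav-SB replicate 2 or 3 (adjusted p = 0.0355, 0.0144, 0.0401 and 0.0456). In all, Nkg7 passed in only 4 of 9 alternatives and in 4 of 14 fits without a single tumour. In those 14 fits the adjusted p was as high as 0.106. It missed with 1 tumour kept for each title number (-2.37, adjusted p = 0.0554), and with the marker covariate it was -1.45 (adjusted p = 0.465). The correlation estimated for the random block was negative (-0.162), and the standard error of Nkg7 was 0.69 with the block, against 0.7 without. That block therefore did not widen the error for shared title numbers. The array weights were mostly lower in CD4-SB tumours (0.543 to 1.029) than in Vav-SB tumours (0.67 to 2.445). That setting therefore counted the tumours of the more variable model less, and whether their spread is technical was not tested.

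Gzma, the granzyme that cuts after basic residues, had its higher mean in Vav-SB. Its levels were 9.14, 10.26 and 11.41 in Vav-SB tumours (lowest, median, highest), against 6.34, 8.64 and 11.41 in CD4-SB tumours. Of the CD4-SB tumours, 4 lay below every Vav-SB tumour, and the highest values of both models were alike. The difference was 1.41 (95% interval -0.13 to 2.95, adjusted p = 0.224). All 7 probe sets of Gzma had the higher mean in Vav-SB, from 0.94 to 1.90, and all 6 of Nkg7 the higher mean in CD4-SB, from -2.58 to -1.58, and 0 of these 13 passed. In every Vav-SB tumour Gzma was above the range of the receptor genes, while Crtam, Gzmb, Klrk1 and Eomes were within it there.

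Gzmb, the granzyme that starts cell death through caspases, was low in all Vav-SB tumours, between 5.14 and 5.84 with a median of 5.38. In CD4-SB tumours it ran from 5.07 to 8.07 with a median of 5.64. Above all of Vav-SB stood 3 CD4-SB tumours, replicates 6 (8.07), 1 (7.59) and 3 (6.84), and the other 4 lay between 5.07 and 5.64. Only replicates 6 and 1 passed the 95% level of the unexpressed receptor genes. The difference was -0.93 (95% interval -1.80 to -0.06, adjusted p = 0.149), and with the marker covariate it turned to 0.02 (adjusted p = 0.99). Prf1, which encodes perforin, was at 6.22, 6.81 and 7.09 in Vav-SB tumours (lowest, median, highest), and at 6.20, 6.55 and 7.62 in CD4-SB tumours. Its difference was 0.10 (95% interval -0.35 to 0.54, adjusted p = 0.818), and its sign changed between settings, to -0.02 with array weights (limma gives noisier arrays less weight), -0.07 with a median over probe sets and -0.10 with bright probe sets alone. Of its 10 probe sets, 4 had the higher mean in CD4-SB and 6 in Vav-SB. The gene level of Prf1 passed the 95% level of the unexpressed receptor genes in 3 of 7 Vav-SB tumours and 1 of 7 CD4-SB tumours. Its small difference was thus measured near background in most tumours.

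The receptor genes were dim. Klrd1, which encodes CD94, ran from 5.33 over 5.75 to 7.05 in Vav-SB tumours and from 5.35 over 6.54 to 7.41 in CD4-SB tumours, with a difference of -0.54 (95% interval -1.24 to 0.16, adjusted p = 0.314) that was 0.13 with the marker covariate (adjusted p = 0.892). The CD4-SB replicates 4 (7.41) and 6 (7.24) lay above all Vav-SB tumours. Klrk1, which encodes NKG2D, ran from 4.54 over 4.96 to 5.06 in Vav-SB tumours and from 4.77 over 5.24 to 6.34 in CD4-SB tumours, and stayed in the range of the unexpressed receptor genes in all 14 tumours. Its difference was -0.56 (95% interval -1.04 to -0.07, adjusted p = 0.121), it passed with array weights (adjusted p = 0.0462), and it was -0.05 with the marker covariate (adjusted p = 0.937). Above all Vav-SB tumours lay 5 CD4-SB tumours, of which replicates 6 (6.34) and 3 (6.22) stood highest.

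The T-box genes had a small spread in Vav-SB and a larger one in CD4-SB. Tbx21, which encodes T-bet, was between 7.04 and 7.42 in Vav-SB tumours with a median of 7.25. In CD4-SB tumours it was between 7.06 and 8.64 with a median of 7.71, and 6 of them lay above every Vav-SB tumour. The difference was -0.62 (95% interval -1.09 to -0.16, adjusted p = 0.0717), and it passed with array weights (-0.55, adjusted p = 0.0396) and without CD4-SB replicate 1 (-0.76, adjusted p = 0.0227). With bright probe sets alone it was -0.14 (adjusted p = 0.619), and with the marker covariate -0.77 (adjusted p = 0.222). Eomes was between 6.31 and 6.70 in Vav-SB tumours with a median of 6.48, and between 6.31 and 7.95 in CD4-SB tumours with a median of 6.63. Replicates 6 (7.95) and 4 (7.36) were its highest CD4-SB tumours, and the only 2 above the 95% level of the unexpressed receptor genes. The difference was -0.38 (95% interval -0.83 to 0.07, adjusted p = 0.263). It was -0.01 with bright probe sets alone (adjusted p = 0.964), -0.64 when the median of its probe sets was taken (adjusted p = 0.218) and -0.20 without CD4-SB replicate 6 (adjusted p = 0.424).

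**Figure D2:**
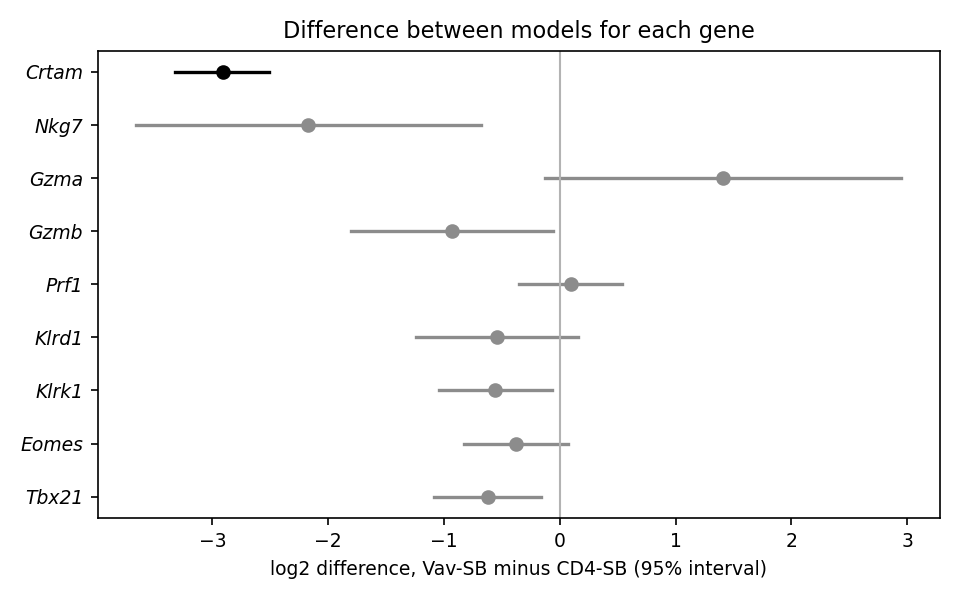
Log2 difference of each gene, Vav-SB minus CD4-SB, with its 95% interval from limma, in black where the adjusted p is under 0.05 and in grey otherwise. Crtam, at -2.91, is the 1 gene past the threshold, and Gzma, at 1.41, lies farthest on the side of Vav-SB.

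Probe sets give a second view of each gene. Of the 84, 64 had the higher mean in CD4-SB and 15 passed, all lower in Vav-SB, namely 11 of Crtam, 2 of Klrk1 and 1 each of Gzmb and Tbx21. Over the array 8.45% of probe sets passed, 3.88% lower and 4.57% higher in Vav-SB, and 11 of the 15 belong to 1 gene. The share of all probe sets with the higher mean in CD4-SB is not given here, and probe sets of 1 gene are not independent. The probe sets of Tbx21 fell apart into some with almost no difference, up to 0.03, and others down to -1.84. Those of Eomes ran from -1.28 to 0.29. Where each probe set lies in its gene was not analysed here.

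**Figure D3:**
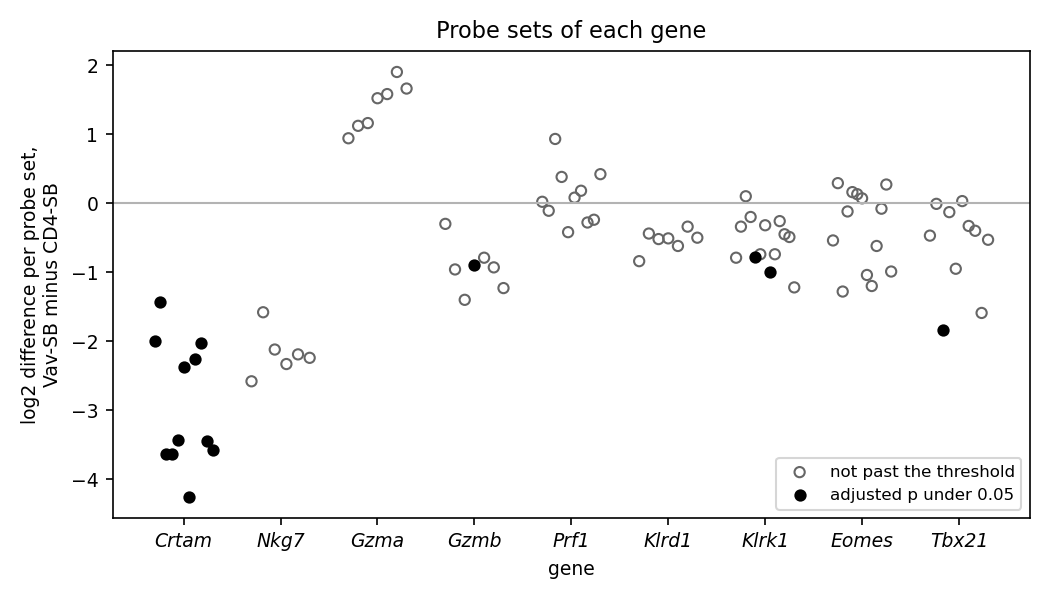
Log2 difference of each of the 84 probe sets, Vav-SB minus CD4-SB, by gene, filled where the adjusted p over all probe sets is under 0.05. All 11 points of Crtam are filled and below 0, and the 7 points of Gzma lie above 0 and are open.

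CD4-SB tumours differed among themselves more than Vav-SB tumours did in all 9 genes, as measured by the SD, which also holds for 73.5% of all genes. The order of the CD4-SB tumours was not the same for every gene. Tbx21 and Gzma ordered them alike, replicates 4, 3, 7, 6 and 5 from the highest down, with replicates 1 and 2 at the bottom in opposite order. Nkg7 had replicates 3, 6, 4 and 7 highest and also 1 and 2 lowest. Gzmb went otherwise, with replicates 6, 1 and 3 highest and replicate 7 lowest. Replicate 6 was first for Gzmb, Prf1, Klrk1 and Eomes and second for Nkg7 and Klrd1, and it was also the highest for Ncr1. Replicate 7 had the highest Crtam (9.53) of all tumours but the lowest Gzmb, Klrd1 and Klrk1 of the CD4-SB tumours. Replicates 5, 6 and 7, which share a title number, were at 5.62, 8.07 and 5.07 for Gzmb. In Vav-SB, replicate 6 had the highest Crtam (6.34), Gzmb (5.84) and Klrd1 (7.05).

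**Figure D4:**
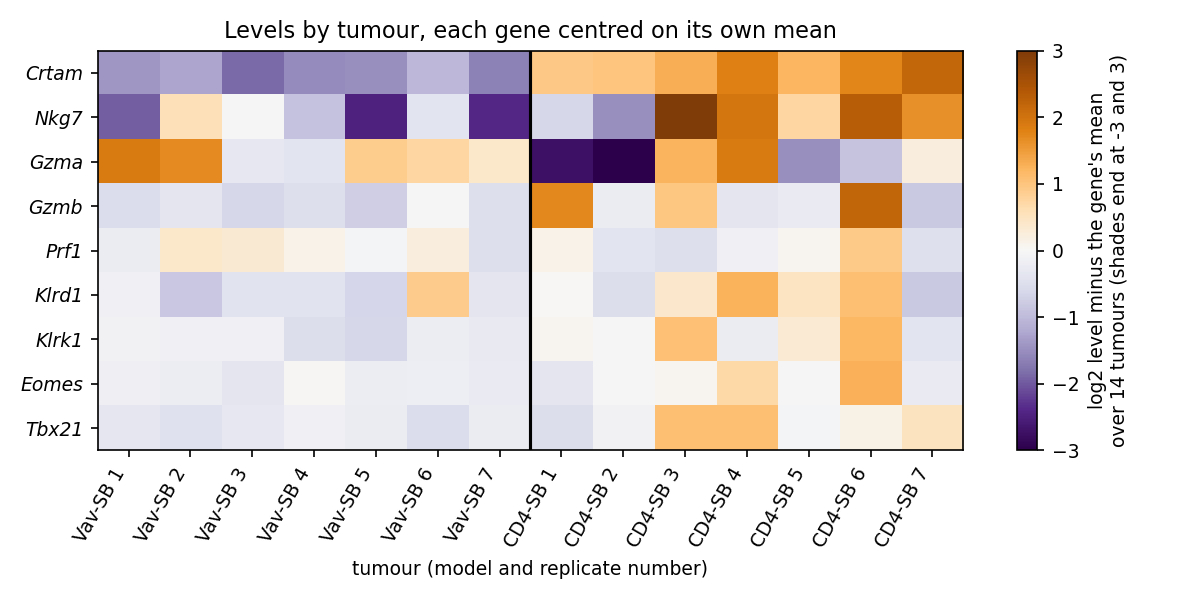
Level of each gene (rows) in each tumour (columns), minus that gene's own mean over 14 tumours, with Vav-SB tumours left of the line. Orange is above and purple below the gene's mean, and shades end at -3 and 3. In CD4-SB replicate 6 every gene but Gzma is above its own mean.

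Genes that followed a member most closely were found by the Pearson correlation over 14 tumours after each model's mean was removed, among genes whose higher model mean lay above the median of all genes. They are a description, since each is the highest among many genes and tumours share title numbers. The chemokine receptor gene Cxcr3, a marker of Th1 and effector cells, was the closest to Tbx21 (r = 0.939, Spearman's rho = 0.714), and this rests on the CD4-SB tumours, since r was -0.446 within Vav-SB tumours but 0.993 within CD4-SB tumours. Cxcr3 ran from 6.29 to 7.00 in Vav-SB tumours and from 6.55 to 10.42 in CD4-SB tumours, with replicates 3 (10.42) and 4 (10.20) on top, as for Tbx21. Xcl1, a chemokine of NK and activated T cells, was the closest to Klrd1 (r = 0.930, rho = 0.758). The second for each were Aamdc (r = 0.925) and Zfp414 (r = 0.922). For Crtam they were Tmem222 and Med9 (r = 0.940 and 0.903), for Nkg7 Stim1 and Slc37a1 (r = 0.862 and 0.861) and for Gzma Fam107b and Prkch (r = 0.893 and 0.888). For Gzmb they were Gpsm3 and Mitf (r = 0.895 and 0.892), for Prf1 Galnt2 and Ppp1r37 (r = 0.863 and 0.858), for Klrk1 Irak2 and Osbpl3 (both r = 0.876) and for Eomes Igf2 and Rcor2 (r = 0.892 and 0.881). Mitf and Rcor2 also rest on the CD4-SB tumours, with r of 0.203 and 0.292 within Vav-SB, against 0.913 and 0.925 within CD4-SB.

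Around the 9 genes, 6 lists of the same programme held 102 other measured genes, of which 3 were higher and 21 lower in Vav-SB past the threshold. That is 23.5%, against 14.5% of all genes, and their median difference was -0.37, against 0.00 over all genes. Of 20 measured genes of granules and their release 0 rose and 4 fell in Vav-SB. Srgn, the proteoglycan that packs granzymes, was at 10.35 ± 0.26 in Vav-SB tumours, 11.23 ± 0.32 in CD4-SB tumours (1.84-fold lower in Vav-SB, adjusted p = 0.00161). Ctsc, the protease that activates granzymes, was 2.01-fold lower (adjusted p = 0.00223), and Lamp1, a protein of lysosome and granule membranes, 1.67-fold lower (adjusted p = 0.00898). Ctsw, a cathepsin of killer cells, was at 6.97 ± 0.35 in Vav-SB tumours, 9.13 ± 1.46 in CD4-SB tumours, 4.47-fold lower in Vav-SB (adjusted p = 0.0119), and CD4-SB replicate 3 (10.80) was its highest tumour. With the marker covariate Srgn, Ctsc, Lamp1 and Ctsw all missed the threshold (adjusted p = 0.086, 0.199, 0.491 and 0.247). No granzyme gene of this list passed without it, and the largest difference among them was that of Gzmk (-1.64, adjusted p = 0.0973).

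Of 27 measured receptors and adaptors of killer cells, 0 rose and 7 fell in Vav-SB. Hcst encodes DAP10, the adaptor through which NKG2D signals, and was at 9.41 ± 0.29 in Vav-SB against 11.18 ± 0.24 in CD4-SB (3.40-fold lower in Vav-SB, adjusted p = 1.75e-06), with no overlap, while its receptor Klrk1 stayed low. Tyrobp, Fcer1g and Fcgr3 were 2.10-fold, 2.74-fold and 2.44-fold lower in Vav-SB (adjusted p = 0.00143, 0.00146 and 0.0018), and these signalling adaptors and this Fc receptor are also made by myeloid cells. The other 20 did not pass, among them Klrb1c (4.87 ± 0.34 in Vav-SB tumours, 5.70 ± 1.88 in CD4-SB tumours, adjusted p = 0.462), Ncr1 (5.20 ± 0.21 and 5.88 ± 0.95 in the same order, adjusted p = 0.201) and Klre1 (adjusted p = 0.936). Not all of these were dim in every CD4-SB tumour. Klrb1b was at 6.08 ± 0.37 in Vav-SB tumours, 8.16 ± 2.14 in CD4-SB tumours, where it reached 11.29 (adjusted p = 0.076). Klrg1 was at 4.64 ± 0.09 and 5.85 ± 1.29 in the same order (adjusted p = 0.0819). Its CD4-SB median was low, at 5.22, and its highest CD4-SB tumour was at 8.52. Of the 27 genes, 25 had the lower mean in Vav-SB, against 49.3% of all genes. Both measured genes of receptor ligands missed the threshold. They are Raet1e (5.03 ± 0.25 in Vav-SB tumours, 5.34 ± 0.48 in CD4-SB tumours, adjusted p = 0.331), a ligand of NKG2D, and Cadm1, the binding partner of Crtam, at 7.90 ± 0.32 in Vav-SB tumours, 8.65 ± 0.67 in CD4-SB tumours (adjusted p = 0.063). At an unadjusted p under 0.05, 1 of these ligand genes passed, and 1 with array weights. The shares of all genes that passed in these ways are not given here, so such counts cannot be set against a background.

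Of 10 effector cytokine genes, 1 passed, while 6 had an unadjusted p under 0.05 and 4 passed with array weights. The gene was Lta (lymphotoxin alpha), 1.35-fold lower in Vav-SB (adjusted p = 0.0232), a call that ended when 1 tumour was kept for each title number (adjusted p = 0.0561) or the median of the probe sets was taken (adjusted p = 0.12). Ifng, which T-bet is known to activate, was at 6.81 ± 0.21 in Vav-SB tumours, 7.10 ± 0.33 in CD4-SB tumours (adjusted p = 0.191). Larger differences also missed the threshold, as for Ccl5 (-2.17, adjusted p = 0.0936) and Csf2 (-1.35, adjusted p = 0.0534). Of the 10 genes, 9 had the lower mean in Vav-SB, against 49.3% of all genes. Of 29 measured cytokine receptors and regulators, 3 rose and 5 fell in Vav-SB. Of the 7 interleukin receptor genes in this list 2 passed, in opposite directions, and Il2rg, Il15ra, Il12rb1, Il18rap and Il21r did not (adjusted p = 0.49, 0.835, 0.694, 0.0972 and 0.155). Il12rb2, the interleukin-12 receptor chain whose signal raises T-bet in Th1 cells, was 8.41-fold higher in Vav-SB (9.59 ± 0.44 against 6.52 ± 0.62 in CD4-SB, adjusted p = 5.3e-06, no overlap). In 6 of 7 CD4-SB tumours it lay below the 95% level of the unexpressed receptor genes, so this fold too may be understated. Il18r1, an interleukin-18 receptor chain, was 4.33-fold lower in Vav-SB (6.54 ± 0.70 against 8.66 ± 1.48 in CD4-SB, adjusted p = 0.0211). Runx3, a factor of the CD8 and killer lineages, was 1.58-fold lower and Bhlhe40, a factor of effector cells, 2.90-fold lower in Vav-SB (adjusted p = 0.00725 and 0.00952).

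Of 14 measured surface genes of effector and memory cells, 0 rose and 4 fell in Vav-SB. Cxcr3 was 3.76-fold lower (6.64 ± 0.25 in Vav-SB tumours, 8.55 ± 1.39 in CD4-SB tumours, adjusted p = 0.0166) and Cx3cr1, a chemokine receptor of effector and myeloid cells, 2.17-fold lower (adjusted p = 0.00453). Cd44, an adhesion receptor of activated cells, was 2.05-fold lower and Itgae, an integrin chain of resident T cells, 2.71-fold lower (adjusted p = 0.0238 and 0.0274). Median probe sets ended the Cx3cr1 call (adjusted p = 0.0642), the removal of Vav-SB replicate 4 that of Cd44 (adjusted p = 0.051), and 1 tumour per title number that of Itgae (adjusted p = 0.0883). The Itgae call also ended without CD4-SB replicate 1 or 6 or Vav-SB replicate 4, 5 or 7 (adjusted p up to 0.059).

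The coreceptor genes were higher in Vav-SB. Cd8a, part of the coreceptor that cytotoxic T cells carry, was at 11.13 ± 0.50 in Vav-SB tumours, 8.90 ± 1.32 in CD4-SB tumours, 4.71-fold higher in Vav-SB (adjusted p = 0.00729), Cd8b1 was 5.79-fold higher (adjusted p = 0.000723) and Cd4 2.41-fold higher (adjusted p = 0.0144, and 0.089 with 1 tumour per title number). In the CD4-SB tumour with the highest Gzmb and Ncr1, replicate 6, Cd8a was the lowest of all tumours at 7.30. In CD4-SB replicate 4, with high Tbx21 and Gzma, Cd8a was at 10.99, in the range of Vav-SB. Cd3g was 1.31-fold and the transcription factor gene Sox13 1.48-fold higher in Vav-SB (adjusted p = 0.00771 and 0.00269). Bright probe sets and a median over probe sets ended the Sox13 call (adjusted p = 0.125 and 0.137). Cd3d at 12.12 ± 0.24 in Vav-SB tumours, 11.84 ± 0.21 in CD4-SB tumours and Cd247, with a difference of 0.54, did not pass (adjusted p = 0.152 and 0.0581).

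**Figure D5:**
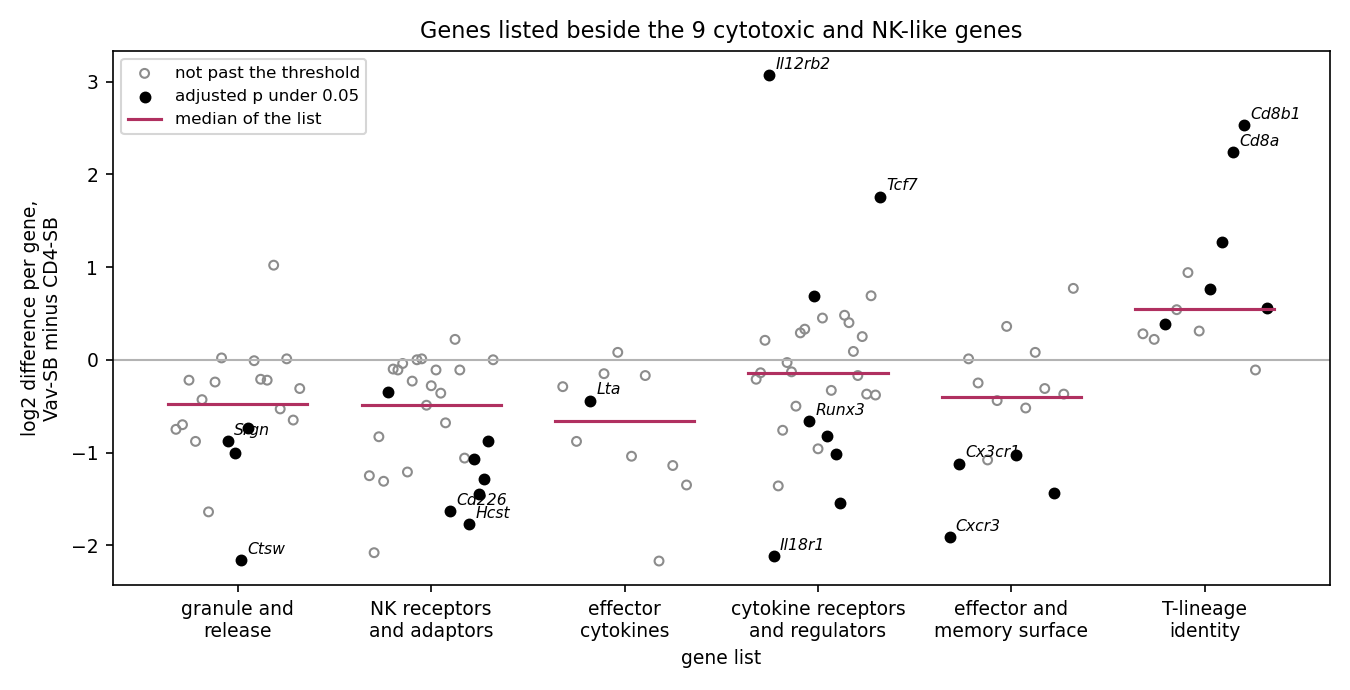
Log2 difference, Vav-SB minus CD4-SB, of each measured gene in 5 lists of the killer programme and the T-lineage list, filled where the adjusted p is under 0.05, with a red line at the list's median. Il12rb2 at 3.07 is the highest point among the killer-cell lists, and Hcst, Ctsw, Il18r1 and Cxcr3 lie between -1.77 and -2.16.

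Markers of myeloid and dendritic cells that passed were also lower in Vav-SB. The myeloid list (14 measured) had 5 such genes and 0 higher, and of 11 dendritic genes 2 fell and 0 rose. With array weights, for which the share of all genes is not given here, 9 myeloid and 5 dendritic genes passed. Of 8 B-cell genes 0 passed in limma, 3 had an unadjusted p under 0.05 and 3 passed with array weights, and of 11 stromal genes 1 rose and 3 fell. The mean level of the myeloid list ran from 7.61 to 8.54 in Vav-SB tumours and from 8.39 to 9.39 in CD4-SB tumours, and that of the B-cell list from 6.82 to 7.07 and from 6.65 to 8.63 in the same order. The mast cell and basophil list, whose cells also carry granule proteases, was at 5.82 ± 0.26 in Vav-SB tumours, 5.72 ± 0.12 in CD4-SB tumours. The mean level of the 44 markers ran from 7.49 to 8.15 in Vav-SB tumours and from 7.84 to 8.89 in CD4-SB tumours. Since it went largely with the strain, a fit with this covariate cannot fully tell marker level and strain apart. With the 44 markers as a covariate, 3.27% of all genes passed, 3 of the 102 programme genes (Il12rb2, Hcst and Cx3cr1), which is 2.94%, and Crtam of the 9. Under it the differences of Hcst and Il12rb2 were -1.54 and 3.42 (adjusted p = 0.000655 and 0.000296). Among the other genes named above, some calls ended with differences within 1.5 times those without the covariate: Cxcr3 (-2.15), Ctsw (-1.70), Itgae (-1.10), Srgn (-0.74), Runx3 (-0.60), Sox13 (0.43) and Cd3g (0.35). Their standard errors were larger with the covariate, as for Cxcr3 (0.73, against 0.48 without it). Other calls ended with smaller differences: Il18r1 (-1.38), Fcer1g (-0.81), Fcgr3 (-0.80), Tyrobp (-0.53), Bhlhe40 (-0.49), Cd44 (-0.47), Ctsc (-0.44), Lta (-0.28) and Lamp1 (-0.23).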

How the data were processed

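Expression was measured on mouse exon arrays in 14 frozen tumours. Each row of the authors' deposited table is a probe set, in log2 units, made with RMA, with Partek also named in the submitters' processing notes, both without versions. RMA in general removes background, aligns the arrays and summarises probes. The sources used here do not state the log base, background step or filters. Values from 2.03 to 14.03 and column medians from 7.46 to 7.50 are usual for RMA on a log2 scale. Since arrays were aligned, a change in a tumour's total RNA cannot be seen. Per the labels' protocols, RNA was amplified from a small input. Correlations between tumours over all probe sets ran from 0.877 to 0.968. The number of arrays limits the precision.

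Of 194293 probe sets, 179496 had 1 symbol in the platform annotation, which was updated through GRCm38.p6 names. Their means gave 15803 genes. The strain label gave the groups, and replicates are numbered in accession order. Differences, Vav-SB minus CD4-SB, were tested with limma 3.58.1 (lmFit, eBayes) in R 4.3.3, over all genes or all 194293 probe sets, with Benjamini-Hochberg adjustment and no filter. The gene fit was checked on simulated data, drawn as independent normal values with the same SD in both models. That check did not cover unequal spreads or shared title numbers. The members and lists were chosen with earlier results of these data known. All 9 members are named, up to 4 genes past the threshold per list, the NK, coreceptor and CD3 genes, and the 2 closest genes per member. Ifng, Ccl5, Csf2, Klrb1b, Klrg1, Cadm1, Raet1e, S1pr5 and the NK markers by tumour were added from the lists as context after their values were seen.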

Additional observations from a re-analysis of the deposited data

Results flagged for a closer look

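Dixon's test at the 95% level was run on the 9 genes and on the killer-programme and T-lineage list genes named above as past the threshold. Also tested were Ncr1, Klrb1c, Klre1, the coreceptor and CD3 genes and Xcl1, but not the other genes named. Of 76 sets of 7 tumours, 7 held a tumour set apart from the rest of its model. Chance alone sets apart about 1 in 20 independent sets. These sets are not independent and their genes were chosen with results known, so the count cannot be set against that share. Prf1 in CD4-SB replicate 6 was at 7.62, and the next tumour was at 6.81. The same tumour stood apart for Ncr1, at 7.96 with the next at 5.86, and for Klre1, at 6.46 with the next at 4.71. Klrb1c in CD4-SB replicate 3 was at 9.65, and the next tumour was at 6.21. In Vav-SB replicate 6, Klrd1 was at 7.05 with the next at 6.03, and Xcl1, the gene most like it, at 9.12 with the next at 7.91. Cd3g in Vav-SB replicate 3 was the lowest of its model at 11.72, and the next tumour was at 12.04.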

How the results depend on the processing

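Crtam kept its direction and its call in all 9 alternatives and without each of the 14 tumours, with differences from -3.19 to -2.77. The count of the 9 genes past the threshold, 1, was 4 with array weights (Nkg7, Klrk1 and Tbx21 besides Crtam), 2 with bright probe sets (7 genes kept), 2 with genes above the median level (4 kept), 2 with the title number as a random block (estimated correlation -0.162), the added gene in these last 3 being Nkg7, and 1 in the other 5. Without single tumours it ran from 1 to 3, with 3 without CD4-SB replicate 1, and 2 without CD4-SB replicate 2, Vav-SB replicate 2 or Vav-SB replicate 3. For these settings the shares of all genes and probe sets that passed are not given here, except 3.27% of genes with the marker covariate. Gzmb (0.02) and Klrd1 (0.13) changed sign with the marker covariate, and Prf1 with array weights (-0.02), bright probe sets (-0.10) and a median over probe sets (-0.07). Of the members' probe sets 15 passed, 23 with array weights and 8 of the 27 bright ones. Of the 102 genes listed beside them 24 passed, and 3 with the marker covariate, where fewer genes passed in all. The causes were not tested. No paired analysis was possible because the replicate numbers follow accession order and pair no tumours. Dim genes, such as Klrk1, lie near background, where folds may be understated.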
